A study of Nothobranchius furzeri with 6 samples.

Results

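The transcripts described here are the 100 that follow the 10 most abundant ones in liver ribosome footprints of the African turquoise killifish, Nothobranchius furzeri, out of 22757 transcripts. They were chosen by their footprints: for each transcript the footprints from the start codon to the stop codon were summed in a library and divided by that library's total, the shares of the 6 libraries were averaged, and ranks 11 to 110 were kept. Because the level chose them, their mean level is a description and carries no test. At the upper edge, rank 10 held 1.78% and rank 11 held 1.39% of all footprints on average. At the lower edge, rank 110 held 0.0806% and the transcript after it 0.0774%.

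Livers of young (5 weeks), adult (12 weeks) and old (39 weeks) fish of the MZM-0410 strain were compared for where ribosomes sit along coding sequences during ageing, with 2 libraries of pooled male and female livers per age and no treatment or genetic change in any group. The study's methods call the libraries biological replicates made from combined livers, and with 2 libraries per age a p-value measures only the spread between these pools. Library totals were 37195456 and 37104582 footprints in young livers, 39738019 and 38226452 in adult livers and 39080600 and 22617158 in old livers, and the second old library was therefore the shallowest. The identifiers in the files are not paired with gene names, and 0 of them matched the reference gene table, so transcripts are called here by rank and length in codons, and the labelled tissue could not be checked against symbol-based marker lists.

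The liver makes most proteins of blood plasma. Their messages are translated on the endoplasmic reticulum, where a hydrophobic stretch near the N terminus guides the growing chain into the secretory route. A ribosome footprint is the piece of mRNA that a ribosome shields from nuclease, so the footprints on a coding sequence reflect both how much mRNA there is and how densely it is loaded. In a bulk liver, fewer cells of a type and less RNA per cell cannot be told apart.

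Translating the deposited codons showed what these 100 transcripts share beyond their level. A hydrophobic stretch near the N terminus, a mean Kyte-Doolittle hydropathy above 2 over 8 residues within residues 2 to 30, was present in 78 of 100 members. The same stretch was found in 36.2% of the next 1000 transcripts by rank and in 25.0% of all other transcripts. The highest such mean hydropathy had a median of 3.02 in ranks 1 to 10, 2.87 in the members and 1.5 in the next 1000. The trait was therefore shared with the transcripts ranked above and is not particular to the members. Median length was 369.5 codons in the members (61 to 3788), against 353 in the next 1000 and 398 in all others. Lysine and arginine together made up a median of 9.97% of residues in the members, against 11.1% in the next 1000. Cysteine, which forms the disulfide bonds of secreted proteins, made up 2.69% against 1.73%. GC at the third codon base was 60.4% in the members and 62.5% in the next 1000.

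Short signatures in the translated sequence were found in 43 of the 100 members, and 57 carried none of those searched. The signature GDSGGP surrounds the active serine of trypsin-type serine proteases, a family that holds both the digestive proteases of the exocrine pancreas, which lies in or at the liver of many teleosts, and the clotting and complement proteases that hepatocytes secrete. It was present in 13 members against 0.247% of all other transcripts. The coding stretch is shown for 4 short and 3 long members, with the codons of the signature in capitals, because the shares of the short and the long members ran differently with age. All were read from the deposited codon column.
Rank 21, 268 codons: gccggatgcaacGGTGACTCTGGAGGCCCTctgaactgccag
Rank 30, 267 codons: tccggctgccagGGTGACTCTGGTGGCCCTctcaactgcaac
Rank 33, 278 codons: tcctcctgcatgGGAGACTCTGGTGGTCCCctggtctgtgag
Rank 36, 261 codons: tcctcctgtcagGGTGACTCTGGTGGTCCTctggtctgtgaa
Rank 23, 812 codons: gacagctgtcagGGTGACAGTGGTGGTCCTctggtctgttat
Rank 38, 616 codons: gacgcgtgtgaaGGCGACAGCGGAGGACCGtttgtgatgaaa
Rank 45, 604 codons: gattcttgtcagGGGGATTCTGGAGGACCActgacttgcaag
Ranks 23, 38 and 45 also carried a kringle, a disulfide-bonded fold known from clotting and fibrinolytic proteases, and none of the short members did.

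Together with the histidine signature of the same family, 15 members were serine proteases, 9 of them with 245 to 278 codons and 6 with 600 codons or more. Lipocalins, small carriers of lipophilic molecules, numbered 5. Globin-type proteins, the oxygen carriers of erythrocytes, numbered 4, and serpins, which inhibit serine proteases, also numbered 4. Zinc carboxypeptidases, proteins with a fibrinogen C-terminal domain and proteins with the thioester of complement and alpha-2-macroglobulin numbered 2 each. Single members carried the signatures of ferritin (rank 107), class I aldolase (rank 80), GAPDH (rank 94), cytochrome P450 (rank 90), lipase (rank 97), phospholipase A2 (rank 91) and carboxylesterase (rank 101), an ending that retains proteins in the endoplasmic reticulum (rank 100) and an ending that sends them to peroxisomes (rank 70). Only the signatures of GDSGGP, P450 and the 2 kinds of ending were in the initial lists, and the others were added after the sequences had been read. By alignment, 19 members fell into 8 families of at least 50% identity over at least 60% of the length, the closest being ranks 47 and 64 (93.7% identity) and the globin-type ranks 20 and 68 (89.2%).

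The members together held 21.7% and 29.2% of all footprints in young livers, 32.9% and 19.8% in adult livers and 31.8% and 40.04% in old livers. The means were 25.5 ± 5.30% in young livers, 26.4 ± 9.27% in adult livers and 35.9 ± 5.85% in old livers (SD, n = 2 each). Both old libraries lay above both young ones, but the higher adult library lay between the 2 old libraries. The 10 transcripts ranked above held 60.5% and 48.2% in young livers, 40.1% and 62.3% in adult livers and 40.3% and 25.2% in old livers, so they were low wherever the members were high. With these 10 left out of the total, the members held 52.6% to 56.4% in every library, with means of 55.7% in young livers, 53.8% in adult livers and 53.4% in old livers.

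Individual members were far less even than their sum. The ratio of the highest to the lowest library share had a median of 3.29, exceeded 2 in 82 members and exceeded 10 in 10 members. The mean share was highest in young livers for 25 members, in adult livers for 18 and in old livers for 57. These are shares of all footprints, of which the 10 transcripts ranked above held 54.4% in young and 32.8% in old livers on average. In the main fit described below, 64 members were lower and 36 higher in old against young livers. Scaled by library totals without the top 10, 55 were lower and 45 higher. Rank 11, the longest member with 3788 codons, held 1.31% and 1.58% of footprints in young livers, 1.64% and 1.07% in adult livers and 1.61% and 1.12% in old livers, and its ages overlapped. Rank 12, a lipocalin of 232 codons, held 0.758% and 1.28% in young livers, 1.7996% and 0.908% in adult livers and 1.25% and 1.34% in old livers, with overlap again. Rank 13, an 88-codon protein with 11.4% cysteine, held 0.164% and 0.545% in young livers, 0.845% and 0.239% in adult livers and 0.752% and 4.52% in old livers, and the second old library stood above all others.

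Rank 14 (1248 codons) ran the other way, with 1.88% and 1.25% in young livers, 0.732% and 2.09% in adult livers and 0.773% and 0.334% in old livers. Rank 15 (713 codons) held 0.479% and 0.851% in young livers, 1.43% and 1.05% in adult livers and 1.70% and 1.12% in old livers, so that both adult and both old libraries exceeded both young libraries. Rank 110 (838 codons), the last to enter, held 0.0417% and 0.0973% in young livers, 0.0894% and 0.0607% in adult livers and 0.0430% and 0.152% in old livers. The widest spread belonged to rank 54 (211 codons), with 0.00403% and 0.00164% in young livers, 0.0101% and 0.141% in adult livers and 0.141% and 1.09% in old livers, a ratio of 665 between the highest and lowest library. The narrowest belonged to rank 59 (380 codons), with a ratio of 1.41. Over the members, log2 shares of the libraries of an age had a Pearson r of 0.93 in young livers, 0.81 in adult livers and 0.75 in old livers, as a description across 100 transcripts that share the library total.

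Grouped by signature, the short serine proteases and the zinc carboxypeptidases had their highest shares in old livers and the globin-type proteins in young livers. The 9 short serine proteases together held 1.38% and 1.49% of all footprints in young livers, 1.26% and 0.885% in adult livers and 5.02% and 4.38% in old livers. Both old libraries lay far above the other 4, which did not reach 2%. Without the 10 top transcripts in the total, the same sums were 3.50% and 2.88% in young livers, 2.11% and 2.35% in adult livers and 8.41% and 5.86% in old livers. The 2 zinc carboxypeptidases, a family that includes pancreatic digestive enzymes that cleave C-terminal residues, held 0.283% and 0.277% in young livers, 0.245% and 0.172% in adult livers and 1.12% and 0.917% in old livers.

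As shares of all footprints the ages overlapped in the long serine proteases. These 6 members held 1.45% and 1.97% in young livers, 2.15% and 1.27% in adult livers and 1.83% and 2.17% in old livers. Without the 10 top transcripts in the total their sums were 3.66% and 3.803% in young livers, 3.59% and 3.37% in adult livers and 3.07% and 2.90% in old livers, and there both old libraries lay below the other 4. The 4 globin-type members held 2.30% and 3.40% in young livers, 1.69% and 0.631% in adult livers and 0.662% and 0.6998% in old livers. They also accounted for nearly all globin-type footprints, since the 17 transcripts with this signature held 2.31% and 3.42% in young livers, 1.69% and 0.632% in adult livers and 0.665% and 0.703% in old livers. Serpins, lipocalins, fibrinogen-domain proteins and thioester proteins overlapped between young and adult and between adult and old livers. As shares of all footprints, serpins did not overlap between old livers (2.15% and 1.54%) and young livers (1.19% and 1.52%). Nor did thioester proteins, with 0.893% and 0.767% in old livers, against 0.464% and 0.665% in young livers. Both groups overlapped between old and young livers once the 10 top transcripts were left out of the total. Serpins then held 3.596% and 2.061% in old livers, against 3.009% and 2.943% in young livers. Thioester proteins then held 1.497% and 1.026% in old livers, against 1.175% and 1.284% in young livers. Without the 10 top transcripts in the total, lipocalins held 3.20% and 2.74% in old livers, against 3.93% and 4.204% in young livers and 4.43% and 4.03% in adult livers.

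**Figure D1:**
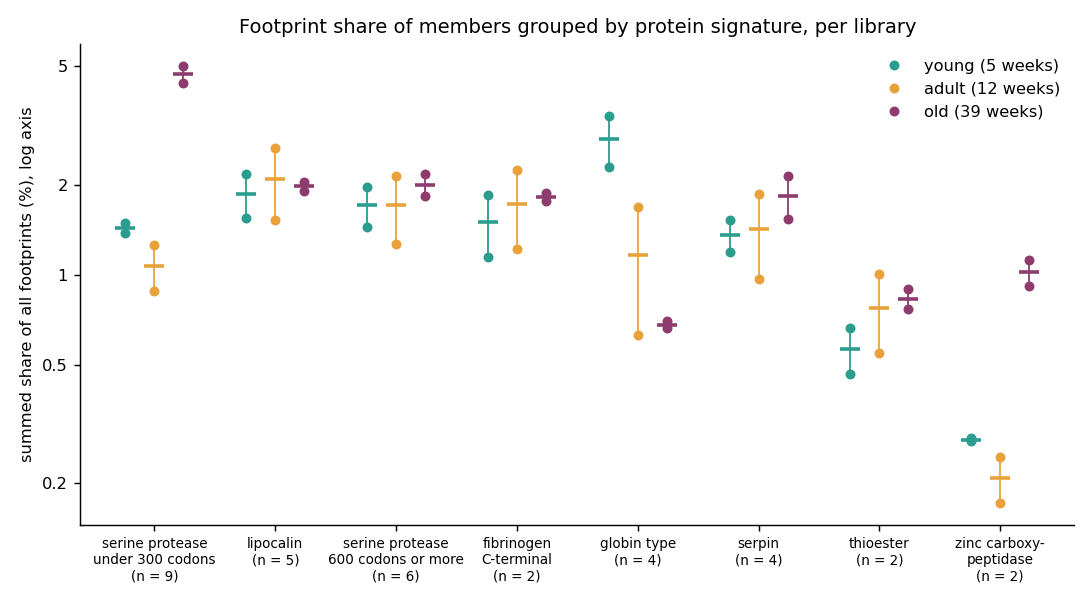
Summed share of all footprints (percent, log axis) of the members that carry each protein signature, with a point for each library, a horizontal bar for the mean of the 2 libraries of an age and a line joining them. Short serine proteases stand at 4.38% and 5.02% in old livers against 1.49% or less elsewhere, and globin-type members at 0.662% and 0.6998% in old livers against 2.30% and 3.40% in young livers.

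Whether a member's ribosome occupancy differed between ages was tested with edgeR's quasi-likelihood test on footprints summed per coding sequence, with Benjamini-Hochberg adjustment over 15557 transcripts and a threshold of 0.05. Levels here are in CPM, counts relative to the library total after TMM scaling, which aligns the bulk of transcripts and so differs from the share of all footprints. Between old and young livers 19 of 100 members passed, 3 of them higher and 16 lower in old. Over all transcripts 11.6% passed, 6.56% higher and 5.01% lower. Of the next 1000 transcripts, 30 were higher and 124 lower. The median log2 fold change was -0.39 in the members, 0.07 over all transcripts and -0.30 in the next 1000. The choice of members by their mean over all libraries bears on these counts, because a transcript near the lower edge could enter through the age in which it was high. In young livers 21 members had a mean share below the 0.0806% of rank 110, as 12 had in adult livers and 6 in old livers. All 3 members called higher in old livers were among those below it in young livers, and 4 of the 16 called lower were below it in old livers (ranks 68, 97, 98 and 102). The values of these members are given as a description, with no p.

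These counts leaned on the scaling and on single libraries. Scaled by library totals without the top 10, which moved the median log2 fold change of all transcripts to 0.37, 24 members passed, 11 higher and 13 lower, against 14.5% of all transcripts, 12% higher and 2.55% lower. DESeq2 called 11 higher and 31 lower, against 18.3% of all transcripts, 9.56% higher and 8.76% lower. With no filter on low counts 30 members and 13% of all transcripts passed, and with a replicate block 6 members and 6.12% did. No member passed in edgeR without young replicate 1 (26 at an unadjusted p under 0.05) or without young replicate 2 (30 at that limit), when 0.0122% and 0.0183% of all transcripts passed. Without old replicate 1 there were 8 members (9.44% of all transcripts), and without old replicate 2 there were 10 (5.14%).

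The 4 globin-type members fell together. Rank 37 (Nfu_t_1_018482, 143 codons) had 967 and 818 CPM in old livers, against 6658 and 8270 CPM in young livers, which is -3.06 ± 0.38 as a log2 fold change (SE of the fit; adjusted p = 0.0139). Rank 68 (148 codons) had 511 and 484 CPM in old livers, against 3440 and 4075 CPM in young livers (log2 fold change -2.92 ± 0.34). Adult libraries lay between the ages for both, at 2816 and 1856 CPM for rank 37 and 1393 and 953 CPM for rank 68.

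Rank 20 (148 codons) had 1901 and 1646 CPM in old livers, against 11699 and 14503 CPM in young livers (log2 fold change -2.89 ± 0.37, adjusted p = 0.0149). Rank 25 (172 codons) had 1495 and 1287 CPM in old livers, against 9094 and 10441 CPM in young livers (log2 fold change -2.81 ± 0.36, adjusted p = 0.0149). The fall passed for ranks 20, 25 and 37 in edgeR, in DESeq2, with totals without the top 10 and with a replicate block. These calls were lost when either young library was left out. Rank 68 had a mean share of 0.0747% in old livers, below that of rank 110, so its values are a description. Ranks 20 and 68 (89.2% identity) and ranks 25 and 37 (79.0%) are relatives, and the assignment of footprints from shared stretches is uncertain. How many blood cells each pool held was not tested.

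Rank 97 (Nfu_t_1_054416, 516 codons), which carries the active serine of lipases, had 221 and 327 CPM in old livers, against 1759 and 2219 CPM in young livers (log2 fold change -2.86 ± 0.44). Old libraries lay below all 4 others, since the adult libraries held 1199 and 606 CPM. The other 11 members that fell in old livers against young ones were ranks 39, 42, 43, 63, 67, 72, 77, 85, 93, 98 and 102, with log2 fold changes of -1.27 to -2.38. Rank 42 is a lipocalin and rank 93 a serpin, rank 67 is a 163-codon protein with 14.1% cysteine and 12.9% proline, and the others carried no signature searched.

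Among the members that passed, the highest log2 fold change belonged to rank 107 (Nfu_t_1_046929, 176 codons), which carries the signature of ferritin, the iron storage protein. It had 751 and 1344 CPM in old livers, against 117 and 163 CPM in young livers (log2 fold change 2.90 ± 0.39), with 996 and 914 CPM in adult livers. It entered through the adult and old libraries, since its mean share in young livers was 0.0118%. Rank 101 (Nfu_t_1_043512, 623 codons), with the carboxylesterase signature, had 1537 and 1230 CPM in old livers, against 587 and 444 CPM in young livers (log2 fold change 1.42 ± 0.32), and its mean share in young livers was 0.0420%. Rank 96 had the smallest change, with a log2 fold change of 0.00 ± 0.36.

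Among the 9 short serine proteases, only rank 81 passed, a member that entered through the old libraries (mean share 0.0456% in young livers and 0.0373% in adult livers). It had 2503 and 1573 CPM in old livers, against 585 and 525 CPM in young livers (log2 fold change 1.88 ± 0.38). All of its footprints lay in the first or last 20 codons, because none of its 205 internal codons was covered, so the value rests on those ends. In 7 of the other 8 both old libraries also exceeded both young ones, as they did in 33.7% of all transcripts, and rank 74 overlapped. Ranks 87 and 99 were below the level of rank 110 in young livers as well, with mean shares of 0.0609% and 0.0595%. Fold changes ran from 0.18 (rank 74) to 1.14 (rank 87) on the log2 scale. For rank 21, the most abundant, the levels were 9678 and 6433 CPM in old livers, against 4462 and 3819 CPM in young livers (log2 fold change 0.96 ± 0.35, adjusted p = 0.118). Log2 fold changes of all 9 were positive under TMM, DESeq2 and totals without the top 10. DESeq2 called 5 of them higher, against 9.56% of all transcripts. Totals without the top 10 gave 5, against 12% of all transcripts. Ranks 81, 87 and 99 entered through other ages, so their part in these counts is a description.

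The zinc carboxypeptidases were close to them. Rank 52 (422 codons) had 4317 and 2763 CPM in old livers, against 1642 and 1332 CPM in young livers (log2 fold change 1.25 ± 0.37, adjusted p = 0.0680). Rank 50 (367 codons) had 3921 and 2785 CPM in old livers, against 2158 and 1716 CPM in young livers (log2 fold change 0.79 ± 0.34, adjusted p = 0.160). Of the long serine proteases 5 of 6 had negative log2 fold changes, as 64 of the 100 members did, and none passed. Rank 23 had 3222 and 3080 CPM in old livers, against 5747 and 6434 CPM in young livers (log2 fold change -0.95 ± 0.32, adjusted p = 0.0933). Differences between these groups of members were not tested. How much exocrine pancreas each pool held, and its part in these values, was not tested.

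Between adult and young livers 1 member passed, higher in adult, and over all transcripts 1.36% did, 1.17% higher and 0.186% lower. That member was rank 107, the ferritin-type protein (log2 fold change 2.77 ± 0.39), which entered through the adult and old libraries. In 16 members the unadjusted p was under 0.05, a description, since the share of all transcripts under that limit was not counted. DESeq2 called 10 members (4.52% of all transcripts), totals without the top 10 gave 2 (1.39%), no filter on low counts 6 (3.26%) and a replicate block 0 (0.18%). No member passed without young replicate 1, young replicate 2 or adult replicate 2, when 0%, 0% and 0.128% of all transcripts passed. Since rank 107 entered through other ages, its part in these counts is a description. Without adult replicate 1 there was 1 call (2.03%), and without either old library there were 2. Rank 86 (397 codons) had 1847 and 2473 CPM in adult livers, against 265 and 395 CPM in young livers, did not pass in this comparison and was also below the level of rank 110 in young livers (mean share 0.0279%). Rank 27 had the smallest change, with a log2 fold change of 0.01 ± 0.34.

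Between old and adult livers 5 members passed, 3 higher and 2 lower in old, with 3.82% of all transcripts past the threshold, 2.37% higher and 1.45% lower. The 3 higher ones were below the level of rank 110 in adult livers, with mean shares of 0.0305% (rank 91), 0.0298% (rank 101) and 0.0373% (rank 81), so they entered through other ages and are a description. Rank 91 (149 codons), with the signature of phospholipase A2, which cleaves fatty acids from phospholipids, had 1681 and 1322 CPM in old livers, against 300 and 471 CPM in adult livers (log2 fold change 1.96 ± 0.34). Rank 101 had 1537 and 1230 CPM in old livers, against 307 and 436 CPM in adult livers (log2 fold change 1.897 ± 0.330). Rank 81 had 2503 and 1573 CPM in old livers, against 364 and 583 CPM in adult livers (log2 fold change 2.11 ± 0.38).

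Rank 32 (366 codons) had 2111 and 1593 CPM in old livers, against 7421 and 8175 CPM in adult livers (log2 fold change -2.07 ± 0.34, adjusted p = 0.0369). Its young libraries, at 3372 and 3789 CPM, lay between. Rank 43 (251 codons) had 940 and 1260 CPM in old livers, against 4866 and 3334 CPM in adult livers (log2 fold change -1.90 ± 0.36, adjusted p = 0.0440). Rank 49 had the smallest change (0.04 ± 0.40). With totals without the top 10, which moved the median log2 fold change of all transcripts to 0.39, 17 members passed, 14 higher and 3 lower, against 9.29% of all transcripts, 8.45% higher and 0.848% lower. Those 14 held all 9 short serine proteases and both zinc carboxypeptidases. Of the short serine proteases, ranks 74, 81, 87 and 99 were below the level of rank 110 in adult livers. Their mean adult shares were 0.0726%, 0.0373%, 0.0469% and 0.0399%. They entered through other ages, so their part in this count is a description. DESeq2 called 48 members (12.5% of all transcripts), no filter on low counts gave 21 (9.06%) and a replicate block 0 (0.00643%). In edgeR, 1 member passed without old replicate 1 (5.78% of all transcripts) and none without old replicate 2 (0.549%), adult replicate 1 (1.19%), adult replicate 2 (0.0794%) or either young library, although 39 to 46 members had an unadjusted p under 0.05 in these fits.

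The libraries of an age were also compared without a model. Both old libraries lay above both young ones in 21 members and below them in 51, where all transcripts gave 33.7% above and 29.3% below. Old against adult gave 14 above and 61 below, with 28.1% and 26.7% over all transcripts. Adult against young gave 26 above and 24 below, near the 25.1% and 25.4% over all transcripts. All 3 comparisons share libraries. Rank 54, with 1041 and 6594 CPM in old livers, against 54.1 and 18.0 CPM in young livers, had the highest log2 fold change (6.73 ± 1.74) and did not pass; its mean share in young livers was 0.00283%, far below that of rank 110.

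**Figure D2:**
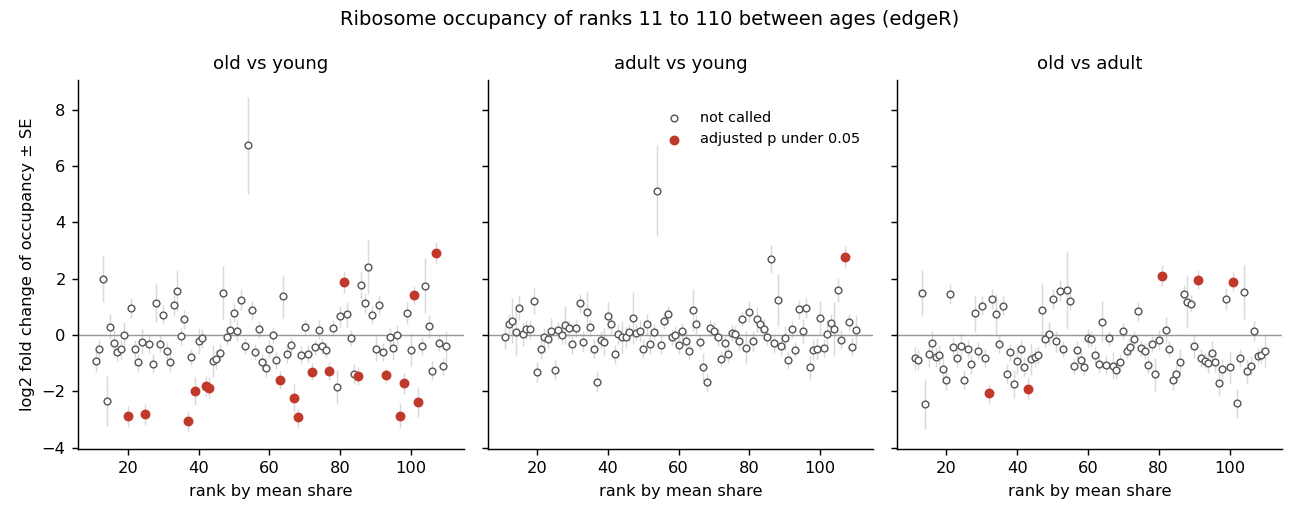
Log2 fold change of occupancy (points) with its standard error (lines) for each member by rank, in old against young, adult against young and old against adult livers; filled points passed the adjusted threshold in edgeR. The 19 filled points of old against young lie mostly below 0, adult against young has 1 and old against adult has 5.

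Along the coding sequence, footprint density was expressed relative to the internal mean of the transcript in the same library, the internal part being all codons but the first and last 20. Rank 81 had no internal footprints, which left 99 members. The deposited position with the start peak was the start codon itself, where the P site of an initiating ribosome lies, whereas the study's methods describe an A-site estimate; positions are given here as deposited.

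Start codon density averaged 5.98 ± 0.35 in young livers, 6.49 ± 0.56 in adult livers and 7.18 ± 0.43 in old livers (SD over 2 libraries of the mean over members). Both old libraries, at 6.88 and 7.48, lay above both young ones, at 5.73 and 6.23, and the higher adult library (6.88) reached the lower old one. In the next 1000 the means were 5.90 in young livers, 6.32 in adult livers and 6.56 in old livers. Codons 2 to 10 averaged 2.15 in young livers, 2.17 in adult livers and 2.29 in old livers, and codons 11 to 20 averaged 1.39, 1.49 and 1.42 in the same order. Of the 7 flanking codons before the start, the 4 farthest held 0 footprints in every library and every transcript of the files. Per the study's methods, reads were aligned to coding sequences with only this flank, so a read that began further upstream could not be aligned. The 0 therefore does not show that no ribosomes lay on these 4 codons. The 3 nearest averaged 0.143 in young livers, 0.140 in adult livers and 0.166 in old livers.

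Members differed much more among themselves than between ages. Rank 34 had the highest start density, with 20.6 and 22.1 in young livers, 23.9 and 26.4 in adult livers and 29.6 and 28.2 in old livers. Start density exceeded 1 in all 6 libraries in 71 members, exceeded 5 in 38 and exceeded 10 in 10. At the other end, 20 members stayed below 0.5 in every library, and 11 had no footprint at the annotated start at all. Rank 11 was low, with 0.866 and 0.553 in young livers, 1.899 and 1.70 in adult livers and 3.44 and 2.73 in old livers, and here the old libraries exceeded both other ages.

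In 4 members the coverage began at an in-frame ATG further downstream. These sequences, read from the deposited codon column from that ATG (capitals) on, are shown because density there was above 1 in every library and near 0 over the codons before it.
Rank 15, codon 37: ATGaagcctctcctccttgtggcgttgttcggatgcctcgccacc
Rank 33, codon 16: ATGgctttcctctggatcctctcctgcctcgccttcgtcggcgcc
Rank 79, codon 99: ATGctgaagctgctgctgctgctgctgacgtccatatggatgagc
Rank 101, codon 69: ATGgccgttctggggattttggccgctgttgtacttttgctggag
Density at this ATG in rank 15 was 3.32 and 5.33 in young livers, 3.77 and 3.62 in adult livers and 3.21 and 4.09 in old livers, against a mean of 0.0444 over the codons before it. Rank 33, a short serine protease, had 8.60 and 5.72 in young livers, 5.36 and 10.9 in adult livers and 18.3 and 11.05 in old livers, against 0.00688 before it. The old libraries of rank 33 lay above all others. Rank 79 had 5.30 to 7.29 and rank 101 had 1.44 to 8.26, lowest in adult replicate 1, each with under 0.01 before it. Of the 15 residues that each printed sequence encodes, 10 in rank 15, 12 in rank 33, 11 in rank 79 and 13 in rank 101 were hydrophobic (A, V, L, I, M, F or W).

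At the other end, density at the last sense codon averaged 0.9495 ± 0.0932 in young livers, 1.04 ± 0.002 in adult livers and 1.11 ± 0.148 in old livers. The old libraries, at 1.00 and 1.21, overlapped with the young ones, at 0.884 and 1.02. In the next 1000 it was 1.08 in young livers, 1.20 in adult livers and 1.25 in old livers. At the stop codon itself the density dropped to 0.327 in young livers, 0.278 in adult livers and 0.288 in old livers. The last sense codon was denser than the stop codon in 90 members, and it exceeded 2 in 10. No footprint lay on the last sense codon or the stop codon in ranks 26, 47, 64, 92, 95, 98, 103 and 104.

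**Figure D3:**
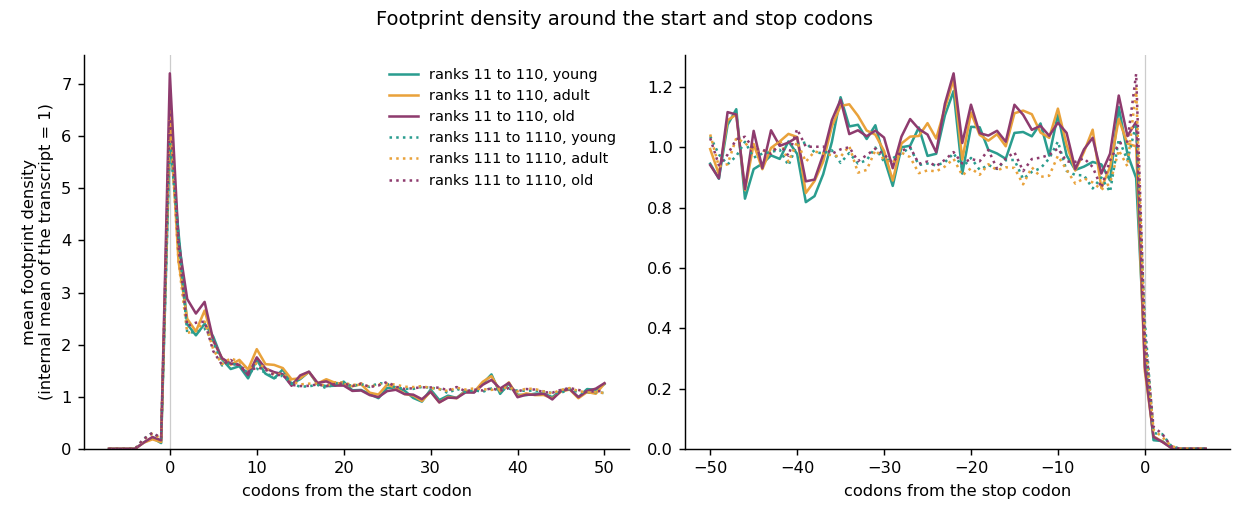
Mean footprint density around the start codon (left) and the stop codon (right), in units of the transcript's internal mean, for the 96 members (solid lines) and 969 of the next 1000 (dotted lines) that are long enough for the plotted stretch, at each age. The peak at the start codon is 5.9999 in young livers, 6.48 in adult livers and 7.21 in old livers for these members, and no comparable peak stands at the stop codon.

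Parts of some members had no footprints in any library. Of 48365 internal codons, 2087 (4.32%) were uncovered. A window of 27 bases around the codon recurred elsewhere in the deposited coding sequences for 2197 codons, and 86.7% of these were uncovered, against 0.394% of the 46168 codons whose window occurred once. The authors kept reads with a single best alignment. In 76 members no internal codon was uncovered, and 19 members had 5% or more. Rank 81 was uncovered in full and had a twin at rank 204 of 100% identity, rank 64 was uncovered in 59.4%, rank 40 in 49.6% and rank 47 in 49.5%. Levels and shares of these members are those of their covered part.

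**Figure D4:**
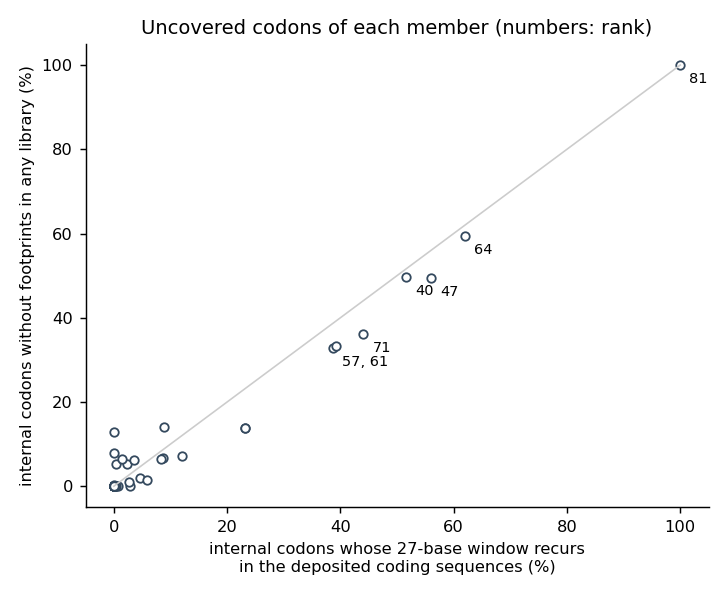
Share of internal codons without footprints in any library (vertical, percent) against the share whose 27-base window recurs in the deposited coding sequences (horizontal, percent), with a point for each member and rank numbers beside the highest. Rank 81 is at 100% on both axes, ranks 40, 47 and 64 lie between 49.5% and 59.4% uncovered, and most members are at 0.

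The profiles within members were alike across libraries. Over internal codons, Pearson's r between the 2 libraries of an age had a median of 0.920 over 99 members, and between libraries of different ages 0.878, as a description, since codons of a transcript share its sequence and the library its depth. In 98 of 99 members the value was higher within an age. Rank 64 had the highest r within an age (0.994), and rank 54, nearly silent in young livers, the lowest (0.610).

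Strong pauses were internal positions with a pause score, the density relative to the internal mean, above 6. Single libraries had 113 and 101 in young livers, 94 and 168 in adult livers and 78 and 83 in old livers. Positions above 6 in every library numbered 26, in 16 members, and rank 40 held the most with 4. Per 1000 internal codons this is 0.538 in the members and 0.817 in the next 1000, where 352 positions passed in 105 transcripts. The next 1000 have lower footprint shares, and uncovered codons were counted only in the members. Proline, whose ring makes it a poor substrate for peptide bond formation, was at the deposited or the preceding codon in 12 of 26 positions (46.2%), against 10.1% over all internal codons of the members. Of the 26 positions, 16 lay in members with 5% or more uncovered codons, and 17 remained above 6 when only covered codons entered the mean.

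The 10 positions with the highest lowest-library score, at most 1 per transcript, are shown with 10 codons before the deposited codon, which is in capitals with the codon that follows it.
Rank 64, codon 38: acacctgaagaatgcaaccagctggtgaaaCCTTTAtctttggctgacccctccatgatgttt
Rank 47, codon 86: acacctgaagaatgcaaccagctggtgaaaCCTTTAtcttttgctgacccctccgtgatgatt
Rank 57, codon 377: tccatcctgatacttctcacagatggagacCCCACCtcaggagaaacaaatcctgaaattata
Rank 61, codon 377: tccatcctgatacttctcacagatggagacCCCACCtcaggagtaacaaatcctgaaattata
Rank 40, codon 579: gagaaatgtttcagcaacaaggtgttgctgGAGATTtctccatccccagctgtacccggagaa
Rank 73, codon 391: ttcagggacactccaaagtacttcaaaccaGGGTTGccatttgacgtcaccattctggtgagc
Rank 26, codon 157: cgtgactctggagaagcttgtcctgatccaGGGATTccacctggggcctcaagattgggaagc
Rank 23, codon 562: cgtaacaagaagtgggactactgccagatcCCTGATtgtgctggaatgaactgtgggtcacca
Rank 101, codon 125: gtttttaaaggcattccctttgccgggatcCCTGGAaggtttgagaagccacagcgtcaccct
Rank 75, codon 742: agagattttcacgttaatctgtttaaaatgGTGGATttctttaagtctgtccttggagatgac
Ranks 47 and 64, and ranks 57 and 61, are pairs of relatives that paused at matching sequence, so they are not independent sites. A proline codon was the deposited codon in ranks 23, 47, 57, 61, 64 and 101 and the codon before it in ranks 26 and 73, where glycine followed. Ranks 40 and 75 had no proline at these codons.

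Rank 64 had the highest score relative to all internal codons, 59.4% of which were uncovered, with scores of 31.2 and 29.3 in young livers, 25.2 and 28.9 in adult livers and 23.9 and 20.9 in old livers. This codon alone held 8.83% of the footprints of the transcript, and both old libraries lay below the other 4. Its relative rank 47 had 13.6 and 12.8 in young livers, 10.4 and 10.7 in adult livers and 10.1 and 8.004 in old livers. Over covered codons the pause of rank 64 averaged 10.8, below the 15.1 of rank 73, and that of rank 47 averaged 5.53, which is not above 6 in every library. The pause of rank 57 had 27.1 and 18.9995 in young livers, 20.98 and 11.1 in adult livers and 11.9 and 13.1 in old livers. Its relative rank 61 had 25.7 and 18.2 in young livers, 18.1 and 12.7 in adult livers and 10.3 and 14.4 in old livers. In both, young libraries exceeded old ones and the adult pair overlapped with old.

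Rank 26, a long serine protease, had 13.6 and 14.9 in young livers, 12.5 and 16.9 in adult livers and 7.57 and 8.54 in old livers. Rank 23, of the same class, had 13.2 and 13.1 in young livers, 10.7 and 13.4 in adult livers and 8.75 and 9.44 in old livers. Old libraries were the lowest at both. Rank 75, related to rank 26, had 9.87 and 11.5 in young livers, 9.53 and 12.3 in adult livers and 12.0 and 13.4 in old livers, with old above young. Rank 40, a thioester protein, had 17.5 and 15.6 in young livers, 13.7 and 21.6 in adult livers and 14.8 and 12.9 in old livers. Rank 73 had 16.4 and 19.3 in young livers, 16.6 and 11.1 in adult livers and 11.7 and 15.4 in old livers. Rank 101 had 8.08 and 7.85 in young livers, 13.2 and 8.89 in adult livers and 7.78 and 8.79 in old livers, with no order by age.

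None of the 26 shared positions passed between old and young livers in edgeR's test over all positions, described next: the smallest adjusted p was 0.0739, and log2 fold changes ran from -0.88 to 0.70. Codon 912 of rank 40 passed in adult against young (log2 fold change 1.04, adjusted p = 0.0201) and in old against adult livers (-1.19, adjusted p = 0.00624). It did not pass under the stricter variance setting given below. The mean score was highest in young livers at 11 positions, in adult livers at 6 and in old livers at 9.

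**Figure D5:**
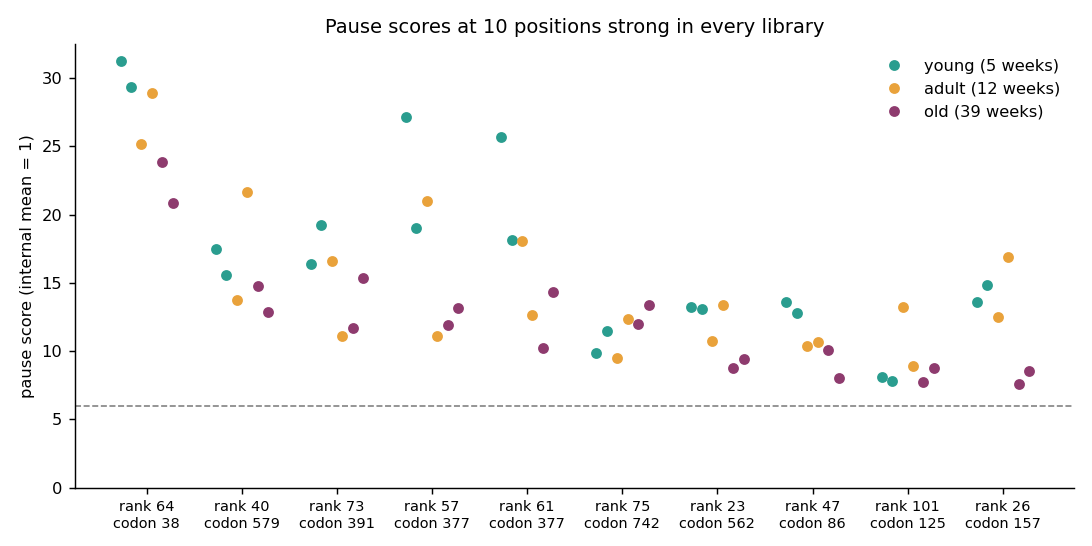
Pause score (density relative to the internal mean of the transcript, no unit) of the 10 named positions in each of the 6 libraries; the dashed line marks the limit of 6. Scores run from 7.57 at rank 26 in an old library to 31.2 at rank 64 in a young library.

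Redistribution of ribosomes within a transcript was tested at each internal position with edgeR's quasi-likelihood test, using the internal footprints of the transcript in each library as the offset, so that a change in level alone gives no call. Of 745708 positions tested, 46100 lay in 99 members. Between old and young livers 808 member positions passed, 441 higher and 367 lower in old, which is 1.75% of those tested, against 0.233% of all positions (0.129% higher and 0.104% lower). Depth differed between these sets, with a median of 562 footprints per position in the members and 23 over all positions. Between adult and young livers 380 passed, 251 higher and 129 lower, with 0.118% of all positions called (0.0756% higher and 0.042% lower). Between old and adult livers 122 passed, 37 higher and 85 lower, with 0.0337% of all positions called (0.0101% higher and 0.0236% lower).

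The count depended on how the variance was shared between positions. The default fit estimated an infinite prior weight, which gives every position the same trend; with a finite prior, an alternative chosen after the data were seen, 13, 3 and 7 member positions passed in old against young, adult against young and old against adult livers, all of them also called by default, against 0.00255%, 0.000536% and 0.000939% of all positions. A replicate block called 0.256%, 0.125% and 0.0327% and Fisher's exact test on summed libraries 5.38%, 5.18% and 3.84% of all positions in the same order. Between old and young livers 1337 member positions passed without young replicate 1 (0.373% of all positions) and 136 without young replicate 2 (0.0502%), while 160 passed after leaving out old replicate 1 (0.0451%) and 290 after leaving out old replicate 2 (0.0763%). Between adult and young livers there were 933 without young replicate 1 (0.257%), 51 without young replicate 2 (0.0243%), 246 without adult replicate 1 (0.0869%) and 179 without adult replicate 2 (0.0475%). Between old and adult livers, leaving out old replicate 1 gave 58 (0.0141%) and old replicate 2 gave 57 (0.0135%), with 151 without adult replicate 1 (0.0448%) and 95 without adult replicate 2 (0.0201%).

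The called positions differed in residue. Among positions lower in old against young livers, glycine preceded the deposited codon in 20.2% and proline in 12.0%, against 6.79% and 5.27% over the member positions tested. The deposited codon was isoleucine in 12.3% and aspartate in 12.5%, against 4.98% and 5.57%. Positions lower in adult against young livers had glycine before in 20.2%, proline before in 11.6% and isoleucine deposited in 23.3%. Positions lower in old against adult livers had 7.06%, 9.41% and 2.35%. The glycine and isoleucine excess thus appeared in both comparisons with young livers, which share the same young libraries, and not in old against adult livers. Whether it rests on a single young library was not tested. Positions higher in old against young livers had glycine before in 5.44%. Lysine was deposited in 9.30% of them, histidine in 4.76% and tyrosine in 5.44%, against 5.67%, 2.43% and 3.43% over the member positions tested. Arginine was deposited in 4.99%, near the 4.55% over the member positions tested. Between adult and young livers lysine was deposited in 11.6% of lower and 6.37% of higher positions. These shares rest on the default fit.

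Some of the positions that passed under both variance settings are described here, named after their values were seen. Codon 149 of rank 25 and codons 209 and 317 of rank 40 also passed under both, higher in old against young livers. Those of rank 40 passed in adult against young livers as well, and 49.6% of its internal codons were uncovered. Codon 73 rose in both close relatives among the globin-type members. In rank 20 it held 0.311% and 0.300% of internal footprints in old livers, against 0.0236% and 0.00190% in young livers (log2 fold change 4.71 ± 0.33, adjusted p = 3.6e-40, and 0.0375 with the finite prior). In rank 68 it held 0.286% and 0.343% in old livers, against 0.0143% and 0.00225% in young livers (5.33 ± 0.49, adjusted p = 1.4e-22, and 0.00977 with the finite prior). Ranks 20 and 68 share most of their sequence, so these are not independent. In each, 13.9% of internal codons were uncovered. The young libraries held only 48 and 6 footprints at this codon in rank 20 and 9 and 2 in rank 68.

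Codon 118 of rank 47 fell to 0.00186% and 0.00469% of internal footprints in old livers, against 0.875% and 0.375% in young livers (log2 fold change -7.21 ± 0.39, adjusted p = 5.8e-69, and 0.0162 with the finite prior), and codon 119 beside it also fell. Codon 575 of rank 57 held 0.152% and 0.145% in old livers, against 0% and 0.00242% in young livers, and the adult libraries held 0.159% and 0.133%. In rank 71, codons 22 to 26 fell as a run in old against adult livers. For codon 23 the values were 0.00227% and 0% in old livers, against 0.684% and 0.371% in adult livers (log2 fold change -8.40 ± 0.58, adjusted p = 1.4e-42, and 0.000201 with the finite prior). Ranks 47, 57 and 71 have 32.9% to 49.5% of their internal codons uncovered.

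Smaller shifts lay in ranks 36, 51 and 96, which had no uncovered internal codon, and in rank 52, which had 7.07%. Codon 160 of rank 36, a short serine protease, held 0.0774% and 0.107% in old livers, against 0.362% and 0.647% in young livers (log2 fold change -2.47 ± 0.28, adjusted p = 2.1e-14, and 0.0375 with the finite prior), with adult libraries at 0.172% and 0.186%. Codon 157 of rank 51 held 0.0963% and 0.125% in old livers, against 0.471% and 0.459% in young livers (-2.06 ± 0.28, adjusted p = 2.4e-09, and 0.0375 with the finite prior). At both a glycine codon came before. Codon 263 of rank 52, a zinc carboxypeptidase, held 0.365% and 0.455% in old livers, against 0.0606% and 0.0559% in young livers (2.81 ± 0.31, adjusted p = 3.4e-15, and 0.0256 with the finite prior). Codon 25 of rank 96 held 3.45% and 2.08% in old livers, against 0.515% and 0.330% in young livers (2.74 ± 0.33, adjusted p = 1.1e-12, and 0.0385 with the finite prior).

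In the default fit rank 11, by far the longest member, held the most old against young calls (52). This is 1.39% of its 3747 tested positions, against 1.75% over all member positions. Of the 808, 82 lay beside another called position, as 28 of 380 did between adult and young livers and 52 of 122 between old and adult livers. Differences above 4 on the log2 scale in either direction were 36 positions in 14 members between old and young livers. No share over all positions is given for these counts of neighbours and large differences, so they are a description.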

How the data were processed

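The authors deposited, for each of 6 liver libraries, whole-number counts of ribosome footprints per codon of the longest transcript of each gene, with 7 flanking codons at each end. Per the study's methods, frozen livers were pooled per library, lysed with cycloheximide and digested with RNase I. By the same methods, footprints were trimmed with cutadapt 1.4.2, aligned with Bowtie 1.3.1 and assigned to codons with riboWaltz. No molecular identifiers were used, so copies made by PCR are counted. Libraries were grouped by the age in their titles.

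From these deposited counts, shares, densities, pause scores and translated features were computed with Python 3.11.15, and tests used edgeR 4.0.16 in R 4.3.3, with DESeq2 1.42.0 as an alternative. Occupancy was tested on footprints summed per coding sequence (all ages in a single fit, TMM, default filter on low counts). Positions needed 10 footprints, in transcripts with 0.5 footprints per internal codon and 64 internal footprints in each age; fits without a library or with a block reused the dispersion trend of the full fit. Both tests were checked on simulated counts, drawn with a common dispersion for transcripts and from the fitted dispersion trend for positions. The position check shares the variance assumption of the default fit, so it cannot decide between that fit and the finite prior. Alignments used BLAST+ 2.17.0.

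Named members were ranks 11 to 15 and 110, for each comparison up to 5 called members with the largest rise and 5 with the largest fall whose libraries did not overlap, the member with the smallest change, and 10 shared pauses, with other members named as parts of a signature group. Members, lists and tests were chosen with earlier results of these data known. Replicate numbers did not pair libraries: deviations of same-numbered libraries correlated at -0.12 (young and adult), 0.15 and -0.16. Marker and pathway lists by gene symbol could not be applied, since no identifier had a name. The alternatives tried are given in the closing section.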

Additional observations from a re-analysis of the deposited data

Results flagged for a closer look

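Footprints also lay outside the annotated coding sequences, in the 7 deposited codons before the start codon, a region that no comparison used. The 4 codons farthest from the start held 0 footprints throughout. Reads that began upstream of the 7 codons could not be aligned, so that 0 is no measure of ribosomes there. More than 3 footprints, the limit that a count of 0 allows, were found in the 7 codons in every library in 55 members. The density averaged over all 7 codons, relative to the internal mean, was 0.895 in rank 78, a long serine protease, 0.726 in rank 24 and 0.662 in rank 72. It was below 0.5 in all other members with internal footprints. Because the 4 empty codons enter this mean, it understates the density of the 3 nearest codons. In rank 78 this stretch held 201 and 289 footprints in young livers, 543 and 264 in adult livers and 554 and 530 in old livers.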

How the results depend on the processing

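Counts of calls moved with the settings. For members called in old against young, adult against young and old against adult livers, DESeq2 gave 42, 10 and 48, no filter on low counts gave 30, 6 and 21, and a fit with the replicate block gave 6, 0 and 0. Totals without the top 10 gave 2 in adult against young and 17 in old against adult livers. Leaving out a library in turn also moved these counts, and each such fit rested on a single library at an age. With the replicate number as a block, 902, 440 and 133 member positions passed. Fisher's exact test on summed libraries, which takes no spread between libraries, called 15096, 13655 and 10238 positions, a finite prior 13, 3 and 7, and leaving out a library 136 to 1337, 51 to 933 and 57 to 177. The summed share became 55.7% in young livers, 53.8% in adult livers and 53.4% in old livers without the top 10 in the total, and with a library left out ran from 21.7% to 29.2%, 19.8% to 32.9% and 31.8% to 40.04%. Start density as a median over members was 5.12 in young livers, 5.32 in adult livers and 6.05 in old livers, and from summed footprints 7.83 in adult and 8.07 in old livers. Before the stop codon the medians were 0.851 in young livers, 0.790 in adult livers and 0.941 in old livers. From summed footprints the values were 1.24 in young, 1.26 in adult and 1.09 in old livers, so old livers were the lowest there. Leaving out a library gave 5.73 to 6.23, 6.09 to 6.88 and 6.88 to 7.48 at the start codon and 0.884 to 1.02, 1.04 to 1.04 and 1.00 to 1.21 before the stop codon. Shared strong pauses numbered 127 above 4, 5 above 10 and 17 over covered codons, and 26 to 32 with a library left out. The excess of members with a hydrophobic N-terminal stretch was 53.0 percentage points over all other transcripts and 41.8 over the next 1000. Ranking by footprints per codon kept 75 of 100 members, ranking on internal codons 96, and leaving out a library 94 to 100. Of 185 alternative values for the named members, 126 kept their side of the threshold, 59 no longer passed and no called member changed direction. Of 114 alternative values for the 18 main results, 59 moved beyond the limits set for an unchanged value and 55 did not. For the summed share and the densities at the start codon and before the stop codon, the limit was the SD of the 2 libraries of an age. Leaving out either library shifts their mean by less than that SD whatever the data. Those values could not count as moved, so the 55 is no measure of stability. The cause of the shifts beyond the limits was not tested.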
